A study of Homo sapiens with 4 samples.

Results

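The death receptors and their adaptors were examined as a group of 10 genes that were listed by symbol for their place in the pathway, with no threshold on a measured value. They are the receptors TNFRSF10A, TNFRSF10B, FAS, TNFRSF1A, TNFRSF12A and TNFRSF21 and the proteins that work beneath them, FADD, TRADD, RIPK1 and CFLAR. Earlier results of these data were known when these genes were chosen. All 10 were found among the 16834 genes of the expression table, and all had reads in every library, from 138 to 4712 estimated reads per gene. The libraries came from cells labelled MIA PaCa-2, an established line of human pancreatic ductal adenocarcinoma (PDAC), recorded as wild type. Of the 4 libraries, 1 came from control cells, 1 from cells given 1 µM neobractatin (NBT, a natural compound of Garcinia bracteata) and 1 from cells given 5 µM trametinib, which inhibits the kinase MEK of the MAPK pathway. The last came from cells given both drugs at these doses, and every exposure lasted 12 h. With 1 library per condition there was no replicate check, so the comparisons below are between libraries, and differences between cultures were not measured.

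Death receptors belong to the tumor necrosis factor receptor family and carry an intracellular death domain. When a ligand such as TRAIL or Fas ligand gathers them, the adaptor FADD joins the receptor and recruits caspase-8, whose activation starts apoptosis, while the caspase-8-like protein c-FLIP (CFLAR) restrains it. TNF receptor 1 works through TRADD and RIPK1 and can signal survival through NF-kB as well as death. Tumor cells are studied for these receptors because TRAIL can kill transformed cells. TNFRSF12A is the exception in the group, since the receptor it encodes has no death domain.

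The libraries were of similar depth, from 18776212 to 19614763 rounded reads in all. A count of 3, taken as the floor, corresponded to 0.153 to 0.160 CPM (counts scaled to the library sum). The trametinib label was checked with DUSP6, SPRY4, SPRY2, ETV4, ETV5 and PHLDA1, which are targets of MAPK signaling. By the rule given below, 6 of 6 were called lower after trametinib, beside 2.15% of all genes. After the combination it was again 6 of 6, beside 3.69%. ETV5 was also called higher with NBT (log2 ratio 1.03, beside 1.6% of all genes). SPRY2 was called higher in the combination than in the trametinib library (1.03, beside 2.56%). The check of the cell line went against its label. CDKN2A, which MIA PaCa-2 cells are known to have lost, was present at 249 to 342 TPM (a level scaled to gene length and to the same total in each library), and EPCAM and CDH1, epithelial genes, at 209 to 242 and 51.2 to 86.9 TPM. Of the same epithelial list, KRT8 and KRT18 were at 1493 to 3799 and 995 to 3142 TPM, each highest in the control and lowest in the combination library. KRT7 was at only 2.25 to 5.74 TPM, and KRT19 was not analysed. VIM, the mesenchymal intermediate filament, was at 11.5 to 26.4 TPM. The cell line entries of the labels also carry a different number for each library, although the titles do not. The libraries are therefore referred to by treatment, and the line is given only as labelled. Summed markers of fibroblasts reached 1.71 TPM at most and those of endothelial cells 0.67 TPM. The leukocyte list summed to 97.1 to 140 TPM, nearly all of it CD68, a lysosomal protein that other cells also express, at 129, 139, 91.9 and 99.2 TPM in the control, NBT, trametinib and combination libraries. PTPRC and CD14, which define leukocytes more closely, were at 0.13 to 0.99 TPM. CD3E, of T cells, had 0 reads in the control and NBT libraries, 55 after trametinib and 29 after the combination, and the part of these markers in the results was not tested.

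The levels of the group spanned a wide range. TNFRSF12A, the receptor Fn14 of the cytokine TWEAK, stood highest in every library, at 427, 441, 413 and 491 TPM in the control, NBT, trametinib and combination libraries. It exceeded 98.2% of all genes of the control library in TPM. TNFRSF1A and FADD followed, in that order, in each library. FAS was lowest in each library, at 7.63, 10.1, 5.00 and 7.67 TPM. The order in between depended on the drug: TNFRSF10B was 4th of the 10 in the control library and 8th in the trametinib library, and TNFRSF10A went from 5th to 9th.

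**Figure D1:**
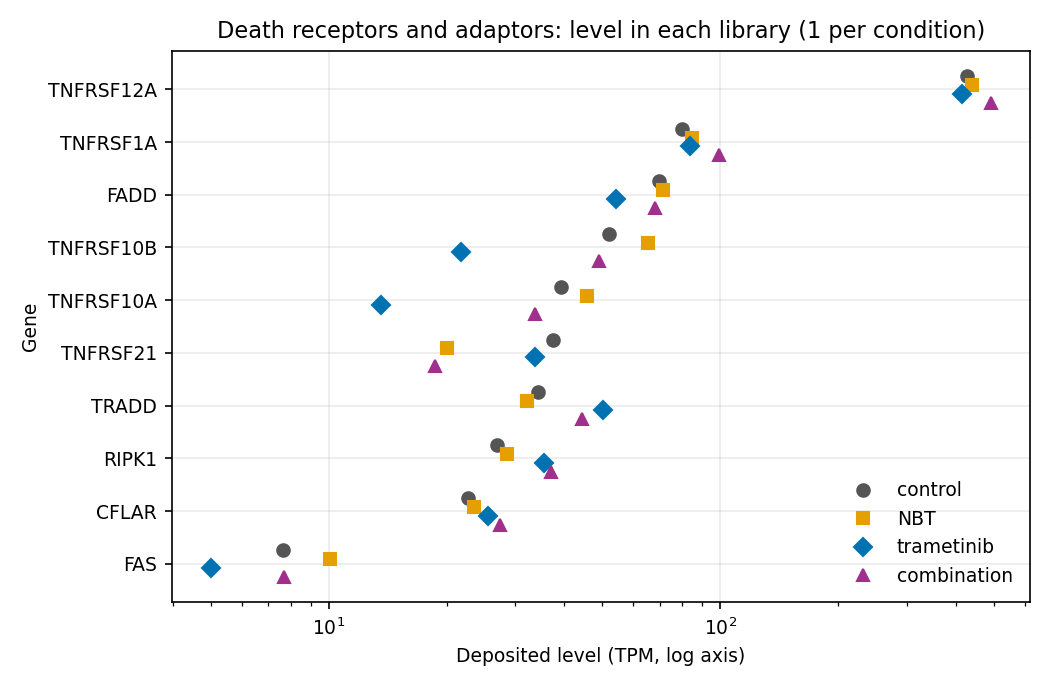
Level of each gene in the 4 libraries (1 symbol per library, TPM on a log axis, genes ordered by their control level). TNFRSF12A sits above 400 TPM in all libraries, and the trametinib symbols of TNFRSF10A and TNFRSF10B, at 13.6 and 21.8 TPM, lie to the left of the other symbols of those genes.

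Each treated library was compared with the control library, and the combination library with each drug alone. Counts were scaled to the library sum, and a gene was called when an exact binomial test of its counts in the pair of libraries, adjusted by the Benjamini-Hochberg method, passed 0.05 and the absolute log2 ratio was at least 1 (2-fold), the limits of the study's methods. With NBT alone, 0 of the 10 genes were called, beside 2.61% of all genes tested. With trametinib alone, 2 were called, both lower, beside 5.96% of genes called in either direction and 2.15% called lower. With the combination, 0 were called against the control, beside 8.42% of genes. Against the trametinib library, the combination library had 2 genes called, both higher, beside 6.11% of genes in either direction and 2.56% called higher. Against the NBT library it had 0, beside 4.36% of genes. The genes called were TNFRSF10A and TNFRSF10B in each case. The comparisons against the control share that library, and the comparison of the combination with trametinib shares the trametinib library with the one before it, so a low value in that library enters both.

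The group as a whole did not move far. Against the control, the 10 genes had a median log2 ratio of 0.15 (NBT), −0.07 (trametinib) and 0.13 (combination), beside −0.01, 0.08 and 0.05 over all genes tested. For the combination against trametinib it was 0.26, against −0.05 over all genes, and for the combination against NBT it was 0.01, against 0.03. With a lower limit of 1.5-fold, 1 gene was called with NBT (TNFRSF21, lower), 3 with trametinib (FAS in addition, lower) and 1 with the combination (TNFRSF21, lower), beside 6.87%, 12.2% and 18.8% of all genes. At this limit 4 were called between the combination and trametinib libraries (TNFRSF10A, TNFRSF10B and FAS higher, TNFRSF21 lower), beside 14.5% of genes, and 0 between the combination and NBT libraries, beside 9.21%.

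**Figure D2:**
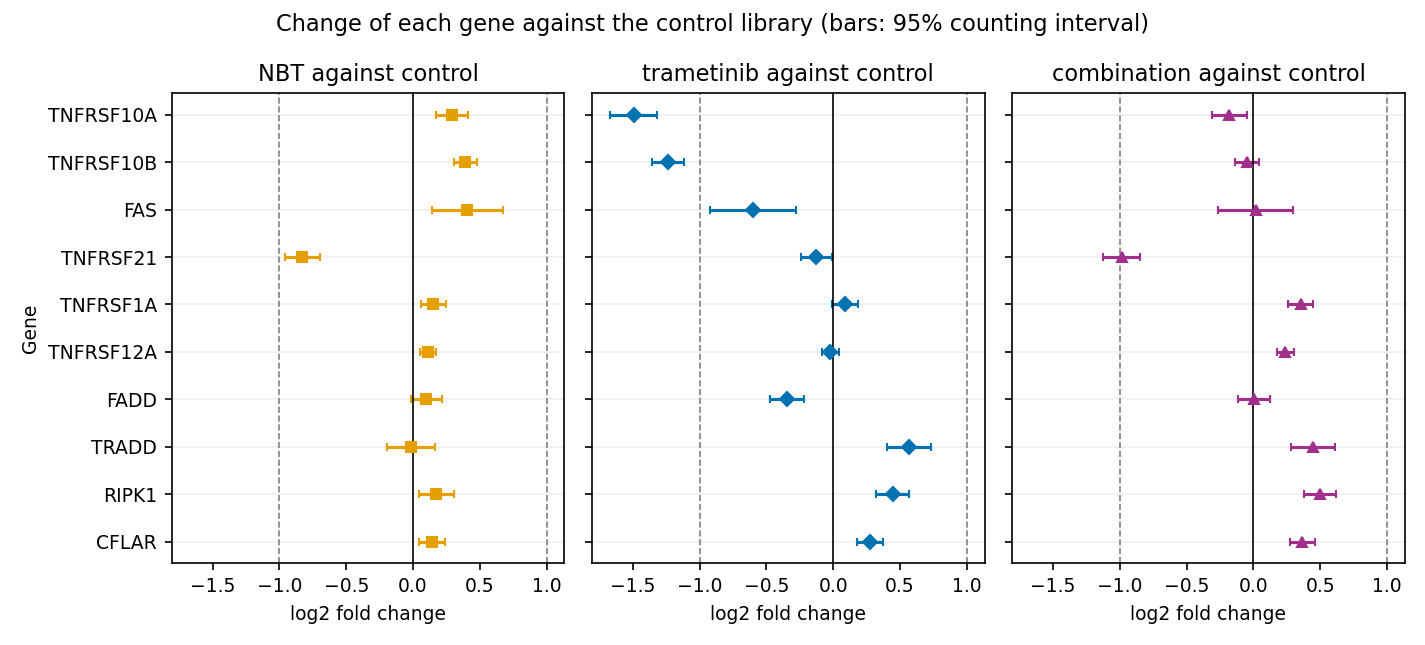
Log2 fold change of each gene against the control library in the NBT, trametinib and combination libraries, with 95% counting intervals (bars) and the limits of −1 and 1 (dashed). TNFRSF10A (−1.49) and TNFRSF10B (−1.24) lie beyond the limit with trametinib only, and TNFRSF21 lies close to it with NBT (−0.83) and with the combination (−0.99).

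TNFRSF10A and TNFRSF10B encode DR4 and DR5, the receptors of TRAIL that carry a death domain. TNFRSF10A had 996, 1264, 357 and 918 reads in the control, NBT, trametinib and combination libraries, or 39.1, 45.8, 13.6 and 33.6 TPM. The trametinib library stood far below the other libraries, which ran from 918 to 1264 reads. The log2 fold change with trametinib was −1.49 (95% interval of the ratio of the counts, −1.67 to −1.32), or 35.5% of the control level per library sum. With NBT it was 0.29 (0.17 to 0.42) and with the combination −0.18 (−0.31 to −0.05), short of the limit. From the trametinib library to the combination library TNFRSF10A rose by 1.31 on the log2 scale (1.13 to 1.49), a ratio of 2.48. These exact (Clopper-Pearson) intervals, here and below, cover counting error only, and in bulk RNA fewer cells of a kind and less RNA per cell cannot be told apart.

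TNFRSF10B was likewise lowest with trametinib, at a higher level. It had 1967, 2672, 842 and 1991 reads in the control, NBT, trametinib and combination libraries, or 52.0, 65.2, 21.8 and 49.0 TPM. The NBT library was highest, and the control and combination libraries could not be separated at this depth. The log2 fold change was −1.24 (−1.36 to −1.12) with trametinib, 0.39 (0.31 to 0.48) with NBT and −0.05 (−0.14 to 0.05) with the combination. The rise from the trametinib to the combination library was 1.19 (1.07 to 1.31), a ratio of 2.28. Of 10662 genes with at least 100 reads in a library, 1.17% had a lower log2 fold change than TNFRSF10A with trametinib and 1.57% a lower one than TNFRSF10B. Between the combination and trametinib libraries, 98.6% and 98.1% of these genes had a lower value. From NBT alone to the combination the log2 ratio was −0.47 (−0.60 to −0.35) for TNFRSF10A and −0.44 (−0.52 to −0.35) for TNFRSF10B. The calls rest on counting error as the only source of spread. When a coefficient of variation of 0.2 between cultures was assumed in a negative binomial test, TNFRSF10A alone was called lower with trametinib, beside 2.25% of genes, and neither gene was called between the combination and trametinib libraries, beside 1.85%.

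The table of transcripts divides TNFRSF10B between 2 RefSeq transcripts, the long form NM_003842.5 and the short form NM_147187.3, which lacks a stretch near the membrane-spanning segment. NM_003842.5 had an estimated 1388, 1782, 408 and 1443 reads in the control, NBT, trametinib and combination libraries. NM_147187.3 had 578, 890, 434 and 547. The trametinib value of the long form was far below its other values, and that of the short form was closer to them. The log2 ratio of trametinib to control was −1.78 for the long form and −0.43 for the short form. The share of the long form in the TPM of the gene was 70.1%, 66.2%, 47.9% and 72.1%, so that the short form was the more abundant one in the trametinib library only. These are estimates from reads that largely match both forms, they carry no counting interval, and the difference was not tested. TNFRSF10A was counted as 1 transcript.

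TRAIL also binds decoy receptors, which lack a working death domain. TNFRSF10D, the decoy DcR2, had 677, 514, 353 and 244 reads in the control, NBT, trametinib and combination libraries, or 20.1, 14.1, 10.2 and 6.78 TPM. It was lower in each treated library than in the control and lowest in the combination library, where TNFRSF10A and TNFRSF10B stood near the control level. The log2 fold change with the combination was −1.53 (−1.75 to −1.32), past the limit, and with trametinib alone it was −0.95 (−1.14 to −0.77), short of it. From NBT alone to the combination it fell by 1.09 (interval of the log2 ratio, −1.31 to −0.87). TNFRSF10C, the decoy DcR1, had 4 to 12 reads per library, too few to compare. The summed TPM of the death-domain receptors TNFRSF10A and TNFRSF10B was 4.36 times that of the decoys in the control library. It was 3.37 times with trametinib, 7.56 times with NBT and 10.8 times with the combination. In the genome (hg38) the TRAIL receptor genes lie side by side on chromosome 8, from TNFRSF10B (start 23020133) over TNFRSF10C and TNFRSF10D to TNFRSF10A (end 23225102). They resemble each other in sequence, and the deposited estimates of TNFRSF10A and TNFRSF10B were not whole numbers, so some reads were divided between genes or transcripts.

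**Figure D3:**
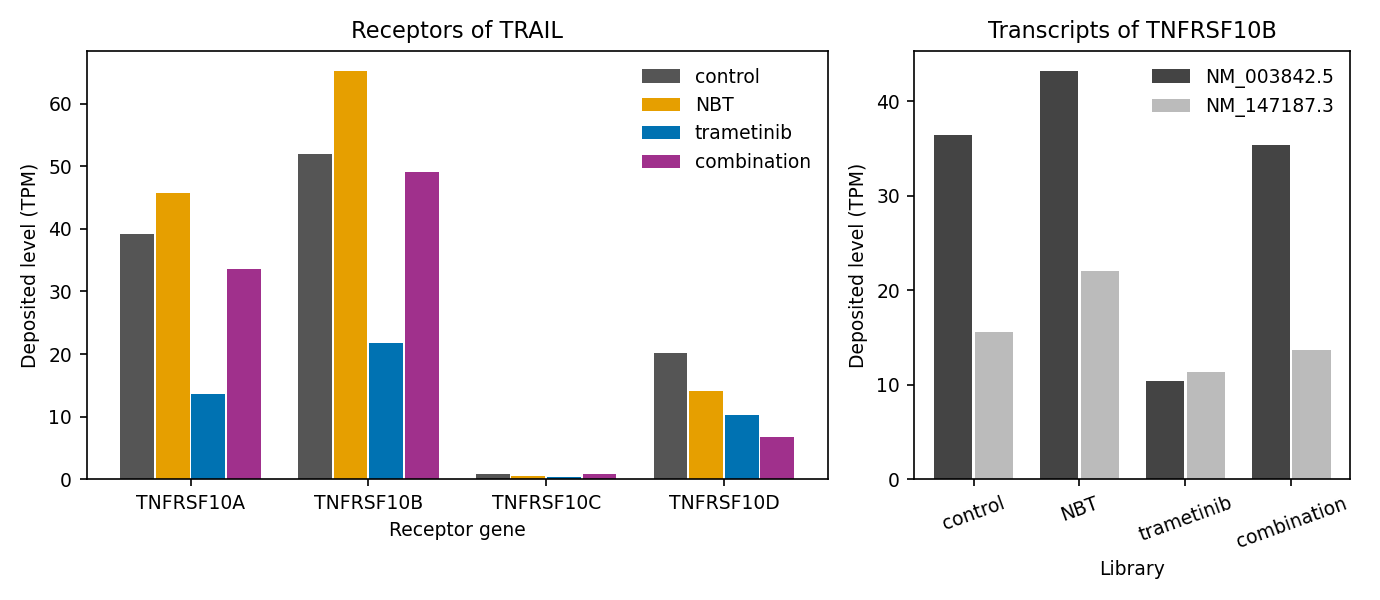
Levels (TPM, from 0) of the TRAIL receptors in the 4 libraries (left) and of the transcripts of TNFRSF10B (right), 1 bar per library. TNFRSF10A and TNFRSF10B drop in the trametinib library and stand near the control in the combination library, TNFRSF10D falls to 6.78 TPM in the combination library, and the long form NM_003842.5 is above the short form in every library but that of trametinib.

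FAS encodes CD95, the receptor of Fas ligand. It had 207, 284, 138 and 219 reads in the control, NBT, trametinib and combination libraries. As for TNFRSF10A and TNFRSF10B, NBT was highest and trametinib lowest. The control and combination libraries were within counting error of each other for FAS, as for TNFRSF10B but not for TNFRSF10A. The log2 fold change was −0.60 (−0.92 to −0.28) with trametinib, 0.41 (0.14 to 0.67) with NBT and 0.02 (−0.26 to 0.30) with the combination. From trametinib to the combination it was 0.61 (0.30 to 0.93). None of these passed the limit of 1, and the sign of the value for the combination against the control turned with TMM or median-of-ratios scaling. FAS was spread over 7 transcripts, of which 5 had reads in some libraries only, so its transcripts were not compared.

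TNFRSF21 encodes DR6, a death receptor known for its role in neurons, where a fragment of the amyloid precursor protein has been proposed as its ligand. It had 1277, 744, 1182 and 673 reads in the control, NBT, trametinib and combination libraries, or 37.3, 20.1, 33.6 and 18.7 TPM. Here the libraries that received NBT were low and those that did not were high, whether or not trametinib was present. The log2 fold change was −0.83 (−0.96 to −0.70) with NBT and −0.99 (−1.12 to −0.85) with the combination, and only −0.12 (−0.24 to −0.01) with trametinib. Against trametinib alone the combination was at −0.86, or 55.0% of the trametinib level. Only 1.49% of the 10662 genes had a lower log2 fold change with NBT. TNFRSF21 was not called in any of these comparisons, and the value for the combination passed the limit with TMM or median-of-ratios scaling, at −1.01 and −1.02.

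The other receptors moved little. TNFRSF1A, which encodes TNF receptor 1, had 1645, 1894, 1768 and 2198 reads in the control, NBT, trametinib and combination libraries. The combination library was highest, with a log2 fold change of 0.35 (0.26 to 0.45), against 0.15 (0.06 to 0.25) with NBT and 0.09 (−0.01 to 0.19) with trametinib. TNFRSF12A had 3820, 4274, 3801 and 4712 reads. Scaled to the library sums, its control and trametinib libraries were not separable (log2 ratio −0.02, −0.0856 to 0.0447). With TMM and median-of-ratios scaling this ratio was −0.095 and −0.0859, below that interval, so the result depends on the scaling. NBT was at 0.11 (0.05 to 0.18) and the combination at 0.24 (0.18 to 0.30). TNFRSF1A and TNFRSF12A were thus highest with the combination, by at most 1.28-fold over the control, and neither was called.

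Of the adaptors, FADD is the link between TRAIL receptors or FAS and caspase-8. It had 1118, 1241, 888 and 1170 reads in the control, NBT, trametinib and combination libraries. The trametinib library was again the lowest, with a log2 fold change of −0.35 (−0.47 to −0.22), and the control and combination libraries were alike within counting error (0.00, −0.12 to 0.12). From trametinib to the combination the log2 ratio was 0.35 (0.22 to 0.48). FADD was therefore lowest with trametinib, like TNFRSF10A, TNFRSF10B and FAS, at a smaller size and short of the limit. Its count was highest with NBT, but within counting error of the control (log2 ratio 0.10, −0.02 to 0.22). The same held for the combination against NBT (−0.10, −0.21 to 0.02).

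TRADD and RIPK1, which assemble on TNF receptor 1, were ordered differently. TRADD had 508, 521, 760 and 723 reads in the control, NBT, trametinib and combination libraries. RIPK1, a kinase of both survival and death complexes, had 928, 1085, 1275 and 1369. For TRADD the libraries with trametinib were high and those without it low, with log2 fold changes of 0.57 (0.40 to 0.73) for trametinib, 0.45 (0.28 to 0.61) for the combination and −0.01 (−0.19 to 0.17) for NBT. For RIPK1 the values were 0.44 (0.32 to 0.57), 0.50 (0.38 to 0.62) and 0.18 (0.05 to 0.30). Between the combination and trametinib libraries neither gene differed beyond counting error, with log2 ratios of −0.12 (−0.27 to 0.03) for TRADD and 0.05 (−0.06 to 0.16) for RIPK1. No value of either gene passed the limit.

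CFLAR encodes c-FLIP, which competes with caspase-8 for FADD. It had 1582, 1806, 1931 and 2130 reads in the control, NBT, trametinib and combination libraries, or 22.7, 23.5, 25.5 and 27.4 TPM. The levels lay close together, with log2 fold changes of 0.14 (0.04 to 0.24), 0.27 (0.18 to 0.37) and 0.37 (0.27 to 0.46) in the NBT, trametinib and combination libraries. CASP8, the gene of caspase-8 and part of the pathway lists below, had 289, 418, 304 and 433 reads, with more in the libraries that received NBT. In TPM, the ratio of CFLAR to CASP8 was 1.27 with NBT and 1.92 with trametinib, with the control (1.70) and the combination (1.5) in between. CFLAR was divided over 16 transcripts, 5 of them with reads in some libraries only, and the forms of c-FLIP were not compared.

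To see whether NBT acted alike in the absence and presence of trametinib, the ratio of the NBT library to the control library was set beside the ratio of the combination library to the trametinib library, which have no library in common. For TNFRSF10A these were 0.29 and 1.31 on the log2 scale, and for TNFRSF10B 0.39 and 1.19. The difference, which is also the departure of the combination from the sum of the single drugs, was 1.02 (0.80 to 1.23) for TNFRSF10A and 0.80 (0.66 to 0.94) for TNFRSF10B. FADD followed with 0.25 (0.08 to 0.42) and TNFRSF12A with 0.15 (0.06 to 0.24). For the other 6 genes the counting interval, computed with the library sums, included 0. FAS, at 0.21 (−0.19 to 0.61), had too few reads to place it with either kind. TNFRSF1A was at 0.11 (−0.02 to 0.24), and at 0.15 with TMM or median-of-ratios scaling and 0.16 with deposited TPM. No interval was computed for these alternatives, so whether TNFRSF1A departed depends on the scaling. TNFRSF21 was at −0.03 (−0.22 to 0.16), since its ratio was −0.83 without and −0.86 with trametinib. Among the 10 genes, 1 departed by at least 1, beside 2.33% of 11367 genes with at least 50 reads in a library, where the median departure was −0.03. Of those genes 99.2% had a lower departure than TNFRSF10A and 98.4% a lower one than TNFRSF10B. TNFRSF10D, the decoy, departed by −0.13 (−0.42 to 0.15).

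**Figure D4:**
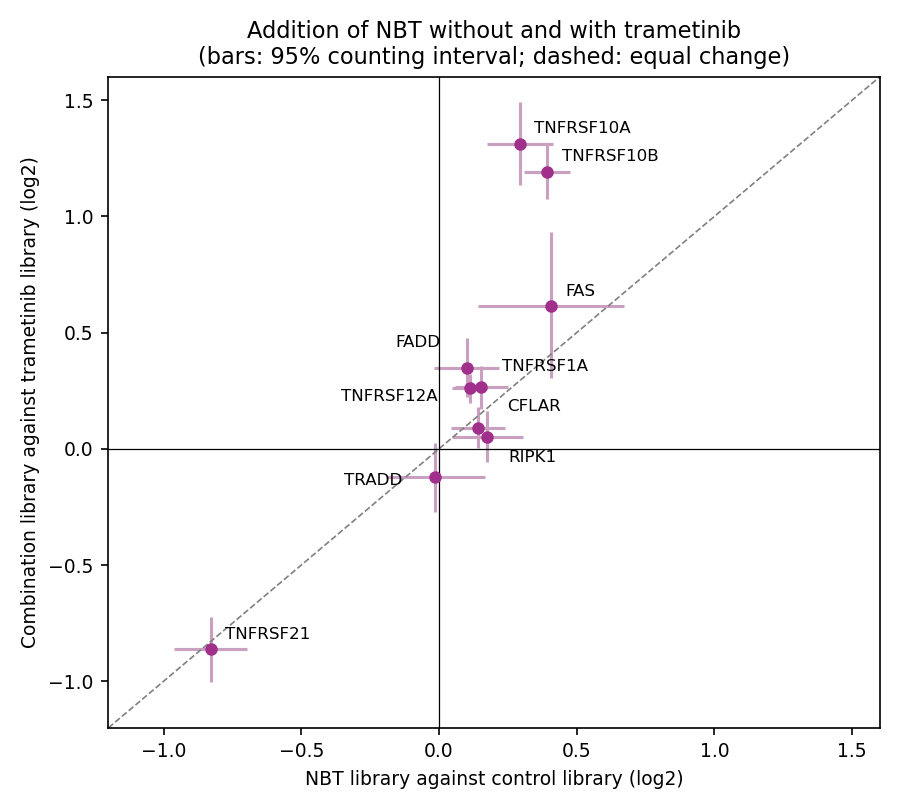
Log2 ratio of the NBT to the control library (horizontal) against that of the combination to the trametinib library (vertical) for the 10 genes, with 95% counting intervals. TNFRSF10A and TNFRSF10B lie well above the dashed line of equal change, at departures of 1.02 and 0.80, and TNFRSF21 lies on it.

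Promoter sequences from RefSeq (GRCh38.p14) were found for 6 of the 10 genes, with 13 start windows in all. The 250 bases before the start are shown for FAS and FADD, which were lowest with trametinib, and for TNFRSF21, which was low in the libraries that received NBT, so that the motifs of stress and MAPK-linked factors can be read in place. Each sequence runs 5′ to 3′ on the strand of the gene, and capitals mark matches to the AP-1 motif TGANTCA or the GC box GGGCGG on either strand.
FAS, chr10:88990548-88990797, plus strand: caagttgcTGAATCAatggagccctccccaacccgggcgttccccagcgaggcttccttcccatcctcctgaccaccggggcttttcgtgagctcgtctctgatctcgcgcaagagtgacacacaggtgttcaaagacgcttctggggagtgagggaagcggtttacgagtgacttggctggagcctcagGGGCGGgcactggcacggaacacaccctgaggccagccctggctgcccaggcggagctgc
FADD, chr11:70203046-70203295, plus strand: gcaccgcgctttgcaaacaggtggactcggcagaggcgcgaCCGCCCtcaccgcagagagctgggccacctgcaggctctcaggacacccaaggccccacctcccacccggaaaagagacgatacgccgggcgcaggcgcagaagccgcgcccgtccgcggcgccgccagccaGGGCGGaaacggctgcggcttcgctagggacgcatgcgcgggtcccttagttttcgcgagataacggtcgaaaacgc
TNFRSF21, chr6:47309906-47310155, minus strand: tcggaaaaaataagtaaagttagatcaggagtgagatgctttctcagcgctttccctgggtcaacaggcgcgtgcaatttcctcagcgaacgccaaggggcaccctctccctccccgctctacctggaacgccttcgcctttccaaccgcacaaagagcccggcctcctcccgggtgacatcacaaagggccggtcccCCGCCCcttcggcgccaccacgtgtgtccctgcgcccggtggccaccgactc

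The FAS window, the first of 3 start windows of the gene, held an AP-1 motif 242 bases before the start and a GC box 60 bases before it. The FADD window held GC boxes 209 and 77 bases before the start, and that of TNFRSF21 held 1, at 52 bases. AP-1 motifs occur in 6.57% of 35116 promoter windows of this length and GC boxes in 42.6%. The other motifs searched on both strands were the CRE motif TGACGTCA (1.65% of windows), the composite of CHOP and ATF4 searched as TGATGNAA (3.14%) and the ETS motif CCGGAAG (8.52%). None of these letters occurred in a searched window. TNFRSF10A and TNFRSF10B were not among the genes searched, so the absence of a motif does not extend to them. An AP-1 motif was also found in 1 of the CFLAR windows, 160 bases before the start. No matches overlap in the windows shown, and a match is a description of the letters and not a binding site.

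The rest of the pathway was read from lists of genes, which were chosen with earlier results of these data known. Of the 12 ligands, 5 had at least 50 reads in a library. TNFSF10, the gene of TRAIL, had 10, 1, 12 and 11 reads in the control, NBT, trametinib and combination libraries, and FASLG and TNF had at most 3 reads in any library. These 3 ligand genes were thus hardly detected. APP, the amyloid precursor, was the most abundant ligand gene, at 327, 284, 286 and 272 TPM, and was not called. TNFSF10 was called lower with NBT, beside 1.01% of all genes, and 0 ligands were called with trametinib, beside 5.96% of all genes. TNFSF14, at 16 reads in the control and 36 in the combination library, was called higher with the combination, beside 4.73% of all genes. TNFSF10, TNFSF14 and, below, TNFRSF1B had fewer than 50 reads and are named because few genes of their lists were called.

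Of 15 decoy and other receptors of the family that were analysed, 8 had at least 50 reads. Their median log2 ratio with trametinib was −0.50, against 0.08 over all genes tested. Only 1 of the 15 was called with trametinib, TNFRSF1B, at 10 reads in the control and 29 in the trametinib library, where 3.82% of all genes were called higher. In the combination library TNFRSF10D was called lower, beside 3.69% of genes, and TNFRSF1B higher. From NBT to the combination TNFRSF10D was again called lower and TNFRSF1B higher, beside 1.99% of genes lower and 2.38% higher. TNFRSF25, the death receptor DR3, had 199, 281, 117 and 179 reads, highest with NBT and lowest with trametinib like TNFRSF10B, with a log2 fold change of −0.78 (−1.12 to −0.44) with trametinib that was short of the limit. It was singled out after its values were seen. LTBR, the lymphotoxin beta receptor, was the most abundant, at 314, 291, 205 and 258 TPM.

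The 13 genes of the death-inducing complex and its caspases were all measured with at least 50 reads. With either drug alone 0 were called, beside 2.61% (NBT) and 5.96% (trametinib) of all genes, and 1 was called higher with the combination, beside 4.73%. DEDD2, a protein with a death effector domain, had 851, 1428, 887 and 1931 reads and was called higher in the combination library against the control (log2 ratio 1.12) and against trametinib (1.07, beside 2.56% of all genes called higher). PEA15, which binds FADD and restrains the complex, was the most abundant, at 234, 300, 228 and 317 TPM (log2 ratio 0.48 with the combination, not called). Medians of the list against the control were 0.06 (NBT), 0.06 (trametinib) and 0.16 (combination) on the log2 scale.

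Among the 25 genes of the TNF receptor 1 complex and of necroptosis, 23 had at least 50 reads, and 0 were called with either drug alone, beside 2.61% (NBT) and 5.96% (trametinib) of all genes. With the combination 2 were called higher, beside 4.73% of all genes. TRAF1, an adaptor that NF-kB induces, had 44, 52, 69 and 332 reads and rose by 2.84 on the log2 scale (2.40 to 3.34). CYLD, which removes ubiquitin chains from RIPK1, had 1011, 1364, 1260 and 2195 reads and rose by 1.06 (0.95 to 1.16). RBCK1, a subunit of the linear ubiquitin ligase, was the most abundant of this list, at 105, 167, 127 and 197 TPM, with a log2 ratio of 0.95 (0.87 to 1.04) with the combination. RIPK3, the kinase that necroptosis requires, had 0 reads in the control, NBT and trametinib libraries and 1 read in the combination library, which is under the floor of 3 counts.

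The last list held 12 regulators known from stress and MAPK signaling to act on death receptor genes. With NBT 3 were called higher, DDIT3, TRIB3 and CEBPB, beside 1.6% of all genes. DDIT3 encodes CHOP, a factor known to induce TNFRSF10B under stress of the endoplasmic reticulum, and had 196, 1298, 443 and 2589 reads. Its log2 fold change was 3.66 (3.45 to 3.88) with the combination, 2.67 (2.46 to 2.90) with NBT and 1.16 (0.92 to 1.41) with trametinib, so that DDIT3 was higher in the trametinib library than in the control while TNFRSF10A and TNFRSF10B were lower there. TRIB3, a pseudokinase downstream of CHOP, had 1070, 4499, 1306 and 5426 reads, and CEBPB, a transcription factor, had 1704, 4706, 1526 and 5745. Both were high in the libraries that received NBT.

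The list also held AP-1 subunits. FOSL1 had 11889, 12386, 1268 and 4000 reads in the control, NBT, trametinib and combination libraries, and JUN had 2598, 3255, 1604 and 4619. Like TNFRSF10A and TNFRSF10B, these genes were lowest in the trametinib library. So were CEBPB (log2 ratio to the control −0.17, −0.27 to −0.07) and, below, ERN1 (−0.34, −0.64 to −0.05). The log2 fold change of FOSL1 was −3.24 (−3.33 to −3.16) with trametinib and −1.63 (−1.69 to −1.58) with the combination, and it rose by 1.61 (1.52 to 1.70) from trametinib to the combination. JUN was at −0.71 (−0.80 to −0.62) with trametinib, short of the limit, and rose by 1.48 (1.39 to 1.56) from trametinib to the combination. ATF3, a stress-induced partner of AP-1, had 718, 1405, 2329 and 6091 reads and was highest with the combination.

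Of the 12 regulators, 8 were called higher in the combination library than in the trametinib library and 0 lower, beside 2.56% of all genes called higher. They were DDIT3, ATF3, TRIB3, CEBPB, ERN1, EIF2AK3, JUN and FOSL1, and the median log2 ratio of the list was 1.33, against −0.05 over all genes tested. ERN1 and EIF2AK3 encode IRE1 and PERK, sensors of unfolded protein in the endoplasmic reticulum. ERN1 had 216, 373, 172 and 444 reads and EIF2AK3 285, 452, 407 and 861. Both were thus highest with the combination, and their log2 ratios to the trametinib library were 1.32 and 1.03. Against the control, DDIT3, ATF3, TRIB3, CEBPB and EIF2AK3 were called higher in the combination library, beside 4.73% of all genes. FOSL1 was called lower there, beside 3.69%. With trametinib alone, DDIT3 and ATF3 were called higher, beside 3.82% of all genes, and FOSL1 lower, beside 2.15%. The list was chosen with earlier results of these data known. Its counts beside the shares of all genes are thus a description and not a test. What part any regulator had in the levels of the receptors was not tested.

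**Figure D5:**
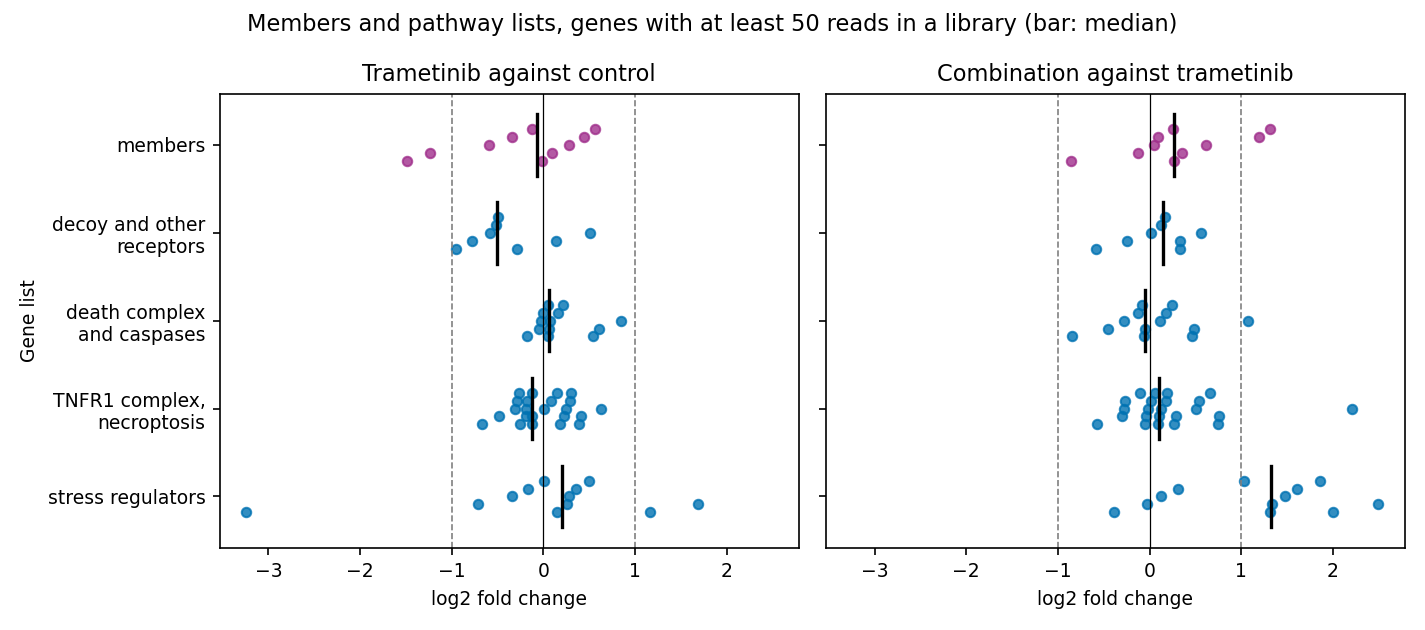
Log2 fold changes of the 10 genes (top row) and of the genes of 4 pathway lists with at least 50 reads in a library, for trametinib against control (left) and the combination against trametinib (right). Each point is a gene, the bar is the median of the row and the dashed lines are the limits of −1 and 1. The lists were chosen with earlier results of these data known. The stress regulators have a median of 1.33 in the right panel, and the medians of the death complex and of the TNF receptor 1 complex lie near 0 in both, with TRAF1 (2.21) and DEDD2 (1.07) beyond the limit at right.

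Genes with a similar pattern were sought over the 3 log2 fold changes against the control, among 9986 genes with at least 100 reads in every library, by Euclidean distance. The nearest to TNFRSF10B were ZNF598 (distance 0.12 on the log2 scale), SGSH (0.13), ITPRIP (0.14), PREX1 (0.17) and MDFI (0.20), and TNFRSF10A was 9th, at 0.31. Among the nearest to FAS were TPD52L2 (0.10), GSDME (0.12), TK2 (0.12) and ZNF710 (0.13). TNFRSF12A, whose levels varied little, was nearest to FBXO38, PPP1R15B, PARP6, WASL and RASAL2, at distances of 0.00513 to 0.0245. The distances rest on 4 libraries that share the control.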

How the data were processed

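RNA of 4 libraries (1 per condition) was sequenced on the BGISEQ platform. The authors deposited an expected count, a TPM and an FPKM value for each library, made by alignment and estimation over 16834 genes and 70268 RefSeq transcripts. The submitters' processing notes name Bowtie2 2.2.5, RSEM 1.2.8 and hg38. The strand setting is not given in the sources used here, and antisense partners of FAS and CFLAR were not analysed here. The labels describe depletion of bacterial ribosomal RNA. The deposited FPKM values were not tested, and deposited TPM gave levels between genes.

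Expected counts were rounded to whole numbers. Log2 ratios used the library sums and 0.5 added reads. Genes were called by an exact two-sided binomial test (the smaller tail doubled), adjusted by the Benjamini-Hochberg method over all genes that had 1 or more counts in the pair, at 0.05 and an absolute log2 ratio of 1. Since this compares libraries, no p-value is printed. Ratio intervals are 95% Clopper-Pearson intervals. Those of departures are normal intervals from the summed reciprocal counts. Both cover counting error only, since each condition had 1 library. PCR reads are not independent molecules, which the intervals do not take into account. Floors are 3 counts.

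The 10 members and the 6 lists were chosen with earlier results of these data known. Named genes are all members, list genes called in at least 1 of 5 comparisons with at least 50 reads in a library, the gene of highest control TPM in each list, and the 5 genes nearest to TNFRSF10B, FAS and TNFRSF12A. TNFRSF11B was not analysed here, and some genes that this rule names are not reported here. Estimates were whole (within 0.005) for 3 of the 10 members. Alternatives were TMM (edgeR 4.0.16), median-of-ratios (DESeq2 1.42.0), deposited TPM with a pseudocount of 0.1, 5 added reads, summed transcripts, at least 10 counts, edgeR's negative binomial exact test with coefficients of variation of 0.2 and 0.4, and limits of 1.5-fold and none. The steps were tested on simulated data. Software was scipy 1.17.1, statsmodels 0.14.6, numpy 2.4.6, pandas 2.3.3 and matplotlib 3.10.9 under Python 3.11.15, and R 4.3.3.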

Additional observations from a re-analysis of the deposited data

Results flagged for a closer look

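TNFRSF10A was flagged for the difference between its response to NBT in the absence and in the presence of trametinib. The log2 ratio was 0.29 without trametinib and 1.31 with it, a difference of 1.02 with a counting interval of 0.80 to 1.23. A difference of at least 1 in size was found for 2.33% of 11367 genes with at least 50 reads in a library. TNFRSF10B had a similar pattern short of 1, with log2 ratios of 0.39 and 1.19 and a difference of 0.80 (0.66 to 0.94). The intervals cover counting error only, and whether the differences exceed the variation between cultures was not tested.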

How the results depend on the processing

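No paired analysis was possible because each condition had 1 library and no condition had replicates to leave out. The 60 single values (log2 ratios and departures of the 10 genes) were recomputed 300 times, with TMM or median-of-ratios scaling, deposited TPM, 5 added reads and summed transcripts. Of these, 296 lay within the counting interval, 4 lay outside it, 0 called values turned sign, and 9 values turned sign, each from a main value of at most 0.0493 in size. The counts of called genes moved most with the limit. Without a limit on the log2 ratio, 8 of the 10 genes were called with NBT, 7 with trametinib, 7 with the combination, 7 between combination and trametinib and 8 between combination and NBT, beside 35.5% to 49.6% of all genes. With a limit of 1.5-fold there were 1 with NBT, 3 with trametinib, 1 with the combination and 4 between combination and trametinib. The shares of all genes there were 6.87%, 12.2%, 18.8% and 14.5%, in that order. With TMM and with median-of-ratios scaling 1 was called with the combination (TNFRSF21) instead of 0, beside 8.46% and 8.48% of all genes. With an assumed coefficient of variation of 0.2, 1 was called with trametinib and 0 between combination and trametinib, beside 2.25% and 1.85% of all genes. With 0.4 there were 0 and 0, beside 0.136% and 0.0857% of all genes. The other counts did not change. The variation between cultures was not measured, and FAS, with 138 to 284 reads, had the widest intervals of the group.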
